A study of Mus musculus with 9 samples.

Results

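Ceramides are the main sphingolipids of the water barrier of skin. They are built in the endoplasmic reticulum of keratinocytes by joining serine to an acyl chain, adding a fatty acid of varying length and introducing a double bond or a hydroxyl group. Most are then capped with glucose or phosphocholine, loaded into lamellar granules and secreted, and outside the cell the caps are removed again so that free ceramides stack between the corneocytes. Sebaceous glands and hair follicles make sphingolipids as well, with their own chain lengths and hydroxylations.

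The 9 genes described here cover these steps: Sptlc2, Sptlc3, Cers3, Cers4, Degs2, Pnpla1, Ugcg, Abca12 and Smpd1. They were chosen by name from this pathway, with earlier results of these data known. All 9 were found among the 19505 genes with a name on the array, each represented by 1 feature, and none shared its values with another gene. The tissue was back skin of C57BL/6J mice aged 8 weeks whose hair had been removed, and all samples received 5% imiquimod cream daily for 7 days, a Toll-like receptor agonist that produces a psoriasis-like dermatitis. In the stretch group (n = 5) a plastic device glued to the skin was elongated by 10 mm on the first day. The other group (n = 4) was not stretched, and the labels do not say whether it wore the device, so device and stretch cannot be told apart. No skin without imiquimod was analysed here, and the labels do not state that each array is a separate mouse, so the error behind each p-value may be partly technical.

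The values are log2 expression levels from Affymetrix arrays, and array medians lay between 5.81 and 5.99. Levels are compared between arrays and not between genes, the log2 ratio of 2 genes included, and whether a dim gene is above background was not examined. The keratin genes Krt1 and Krt10 of differentiated keratinocytes were at group means of 19.86 and 19.53 with stretch and 19.92 and 19.77 without, while Krt2, another keratin of these cells, was at 3.06 and 3.12, near the bottom of the scale. Stretch replicate 1 and no-stretch replicate 3 had the lowest weights when arrays were weighted by their fit (0.55 and 0.58, against 0.76 to 1.58 for the other 7). In whole skin, fewer cells of a type and less RNA per cell cannot be told apart, and this holds for each difference below.

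Of the 9 genes, 7 had a lower mean with stretch and 2 a higher one, and none passed limma's test at an adjusted p of 0.05 over all genes, where 48 of 19505 genes did (0.246%). Cers4 came closest: it was 3.99-fold lower with stretch, every stretched array lay below every non-stretched one, and its limma adjusted p was 0.0501. Without adjustment, 4 of the 9 had p under 0.05, lower for Cers4 and Sptlc2 and higher for Ugcg and Degs2, beside 13.0% of all genes. The median log2 difference of the 9 was -0.51, against -0.0034 over all genes.

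**Figure D1:**
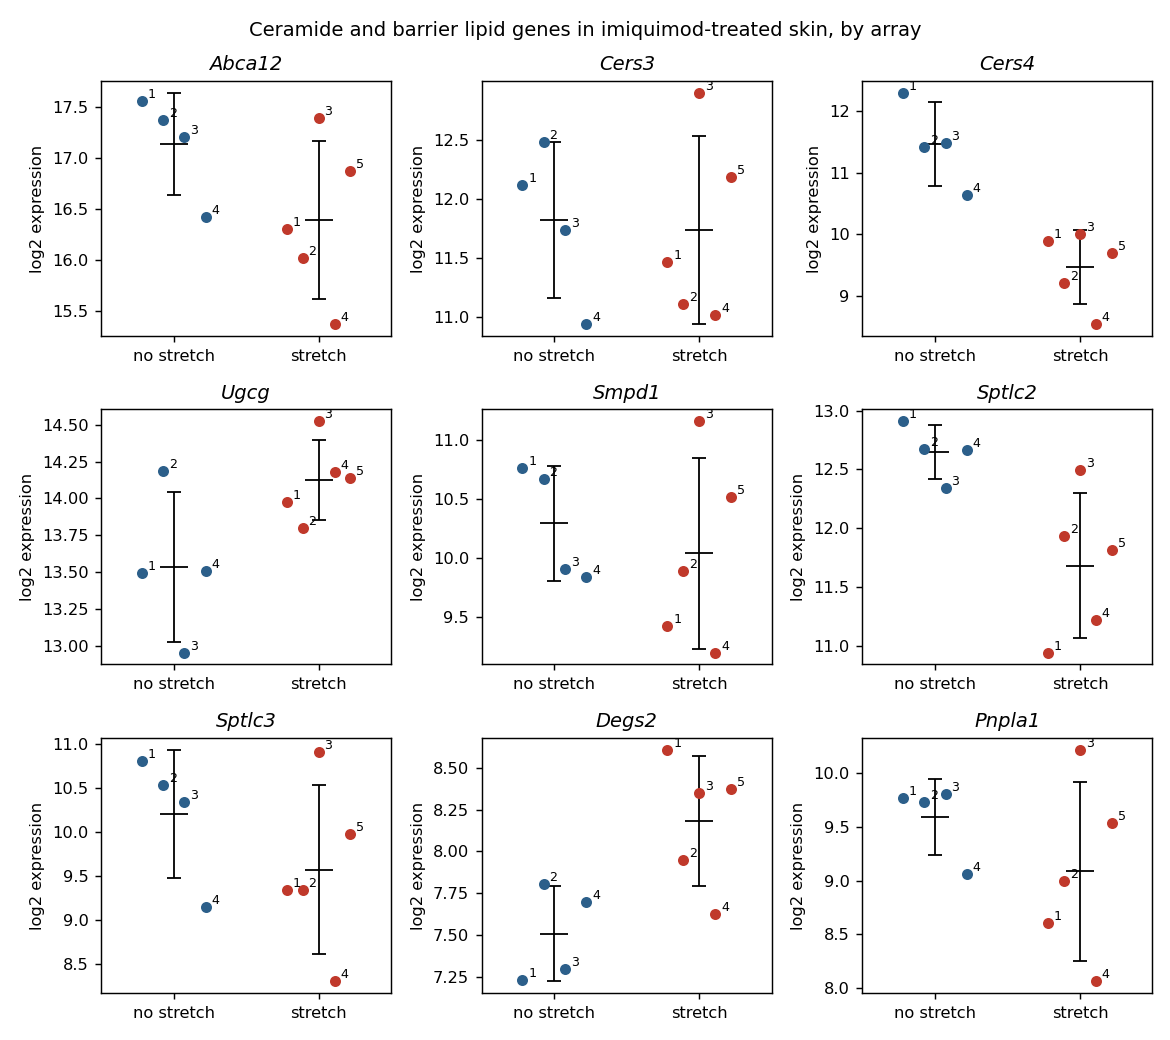
Log2 expression (vertical axes, one scale per gene) of each gene on the 4 no-stretch arrays (blue) and the 5 stretch arrays (red), numbered by replicate, with the group mean and SD in black. Cers4 is the gene whose groups do not overlap, and stretch replicates 3 and 4 mark the upper and lower end of the stretch group for most of the others.

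The sequences upstream of 4 genes are shown because these genes carry the results that follow: Cers4 has the largest difference, Abca12 and Sptlc3 vary together from array to array, and Degs2 goes the opposite way. Each line is the 250 bases before the start of the gene, 5′ to 3′ on the gene's strand, from RefSeq on GRCm38.p6, and capitals mark matches on either strand to the motifs searched.
Cers4, chr8:4493155-4493404, + strand: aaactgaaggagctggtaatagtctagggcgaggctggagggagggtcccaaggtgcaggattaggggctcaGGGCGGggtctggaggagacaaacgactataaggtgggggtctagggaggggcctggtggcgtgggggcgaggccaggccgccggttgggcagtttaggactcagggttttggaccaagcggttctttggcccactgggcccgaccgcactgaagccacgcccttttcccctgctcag
Abca12, chr1:71414911-71415160, - strand: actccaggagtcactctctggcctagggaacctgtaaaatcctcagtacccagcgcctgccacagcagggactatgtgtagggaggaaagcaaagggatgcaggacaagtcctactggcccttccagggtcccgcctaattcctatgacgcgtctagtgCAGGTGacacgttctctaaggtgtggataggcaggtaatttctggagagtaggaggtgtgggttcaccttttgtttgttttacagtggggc
Sptlc3, chr2:139493663-139493912, + strand: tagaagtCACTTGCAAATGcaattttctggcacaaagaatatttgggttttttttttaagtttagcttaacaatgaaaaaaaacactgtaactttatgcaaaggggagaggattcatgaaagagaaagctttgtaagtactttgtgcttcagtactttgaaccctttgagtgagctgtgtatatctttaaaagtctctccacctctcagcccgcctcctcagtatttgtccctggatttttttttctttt
Degs2, chr12:108702307-108702556, - strand: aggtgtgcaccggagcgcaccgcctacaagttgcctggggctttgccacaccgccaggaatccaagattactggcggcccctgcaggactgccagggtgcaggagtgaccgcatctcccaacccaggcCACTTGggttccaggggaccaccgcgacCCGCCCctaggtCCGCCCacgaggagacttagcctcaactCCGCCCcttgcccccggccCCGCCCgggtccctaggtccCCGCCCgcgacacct

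A promoter entry was found for all 9 genes. The GC box with the letters GGGCGG was in 5 of the 9 (Cers4, Degs2, Smpd1, Sptlc2 and Ugcg) and in 32.7% of all 32851 promoters in the table. Degs2 had 5 such matches, the farthest 94 and the nearest 15 bases before the start, whereas Cers4 had 1, at 178 bases. The CCAAT box was in 3 of the 9 (Pnpla1, Smpd1 and Sptlc2) and in 33.8% of all. An E-box, with the letters CANNTG, was in 5 (Abca12, Degs2, Smpd1, Sptlc2 and Sptlc3) and in 66.2% of all. The TATA box TATAAA, the AP-1 site with the letters TGANTCA and the grainyhead-like core AACNNGTT matched in none of the 9 windows and in 12.4%, 6.75% and 3.64% of all promoters. Abca12 and Sptlc3, the pair most alike from array to array, differed in base composition: G and C made up 53.2% of the Abca12 window and 35.6% of the Sptlc3 window, against 63.2% for Cers4, 69.2% for Degs2 and a median of 52.4% over all promoters.

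Synthesis starts with serine palmitoyltransferase, whose large catalytic subunit is either Sptlc2 or Sptlc3. Sptlc2 was at 10.94, 11.94, 12.49, 11.22 and 11.82 in stretch replicates 1 to 5 and at 12.91, 12.67, 12.35 and 12.67 in no-stretch replicates 1 to 4. Of the 5 stretched arrays 4 lay below every non-stretched one, and stretch replicate 3 lay inside the non-stretched range. The log2 difference was -0.97 (95% confidence interval -1.59 to -0.34), a 1.95-fold lower level, with limma adjusted p = 0.187. The stretched arrays varied more (SD 0.61, n = 5) than the others (SD 0.23, n = 4).

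Sptlc3, which accepts a wider range of acyl chains and is known from skin, was at 9.33, 9.33, 10.91, 8.30 and 9.97 with stretch and at 10.80, 10.53, 10.34 and 9.14 without. The groups overlapped fully, with the highest and the lowest of all 9 values both on stretched arrays. Its log2 difference was -0.63 (95% confidence interval -1.66 to 0.40, limma adjusted p = 0.608), and leaving out stretch replicate 4 gave -0.32 and leaving out no-stretch replicate 4 gave -0.99. The shift of Sptlc2 relative to Sptlc3 was -0.33 on the log2 scale, within the spread between arrays (exact permutation p = 0.476, two-sided, also 0.476 after Benjamini-Hochberg over the 2 enzyme pairs compared), and it was 0.025 without no-stretch replicate 4.

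Ceramide synthases add the fatty acid. Cers4, the family member that uses long-chain acyl groups and whose loss in mice affects hair follicles and sebaceous glands, was at 9.89, 9.21, 10.00, 8.54 and 9.69 with stretch. Without stretch it was at 12.31, 11.43, 11.48 and 10.64. The highest stretched value, replicate 3, was below the lowest non-stretched one, replicate 4, and among all genes 2.15% lay wholly lower with stretch in this way. Group means were 9.47 ± 0.60 (SD, n = 5) and 11.46 ± 0.68 (SD, n = 4), a log2 difference of -1.997 (SE 0.36, 95% confidence interval -2.78 to -1.22) with limma adjusted p = 0.0501, the rank of its p among 19505 genes being 51. Over the 18 alternative analyses the difference stayed between -2.27 and -1.72, and the limma adjusted p was under 0.05 in 7 of them. It was 0.042 after quantile normalization and 0.033 with stretch replicate 3 left out, and at its highest, 0.148, with the first non-stretched array left out.

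Cers3, the synthase for ultra-long chains on which the epidermal barrier depends, gave no such separation. It was at 11.47, 11.12, 12.90, 11.02 and 12.18 with stretch and at 12.12, 12.48, 11.74 and 10.94 without. The lowest value of all belonged to a non-stretched array and the highest to a stretched one. Its log2 difference was -0.08 (95% confidence interval -0.97 to 0.81, limma adjusted p = 0.949), and the sign turned when stretch replicate 2 or 4 or no-stretch replicate 1 or 2 was left out, so it has no settled direction. The level of Cers4 relative to Cers3 shifted by -1.91 on the log2 scale (values of the log2 ratio between -2.90 and -1.58 with stretch and between -1.05 and 0.18 without). That shift had an exact permutation p of 0.0079, the smallest that 126 arrangements of the arrays allow (two-sided, 0.016 after Benjamini-Hochberg over the 2 enzyme pairs). Cers4 alone had the same exact permutation p (0.0079) and Cers3 hardly differed, so the shift restates the separation of Cers4 and adds no support. This pair was compared after the values were known, which the adjustment over 2 pairs does not cover.

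Degs2 introduces a hydroxyl group or a double bond, giving the phytoceramides of skin. It was at 8.61, 7.95, 8.35, 7.63 and 8.37 with stretch and at 7.23, 7.80, 7.30 and 7.70 without. On 4 of the 5 stretched arrays it was above every non-stretched value, and stretch replicate 4 lay inside the non-stretched range. The log2 difference was 0.67 (95% confidence interval 0.18 to 1.16), a 1.60-fold higher level, with limma adjusted p = 0.228.

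Pnpla1 transfers linoleate to ceramides and so makes the acylceramides of the barrier. It was at 8.61, 8.996, 10.22, 8.06 and 9.54 with stretch and at 9.77, 9.73, 9.81 and 9.06 without. Among the stretched arrays 3 lay below all non-stretched ones and replicate 3 lay above them all. The log2 difference was -0.51 (95% confidence interval -1.32 to 0.31, limma adjusted p = 0.604). Without stretch replicate 4 it was -0.25, and without stretch replicate 3 it was -0.79.

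**Figure D2:**
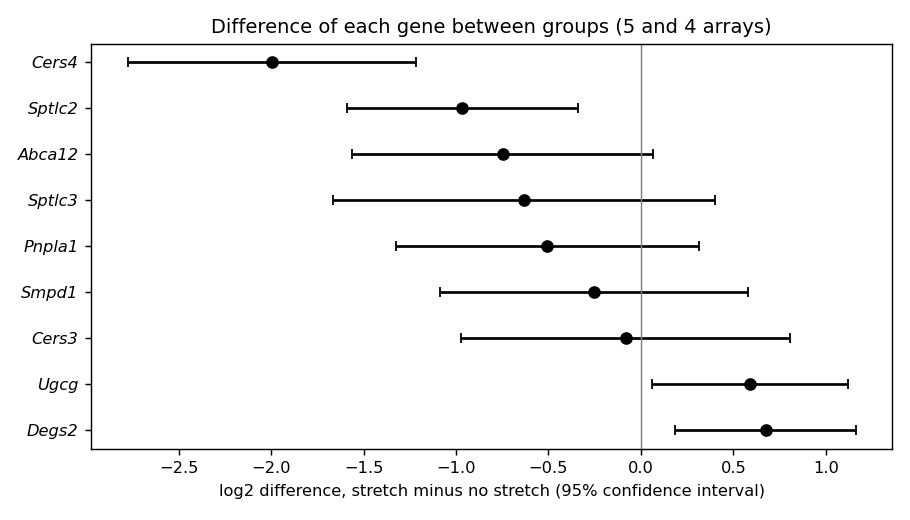
Log2 difference, stretch minus no stretch (horizontal axis), of each of the 9 genes with its 95% confidence interval from limma's moderated fit on 5 and 4 arrays. The interval lies wholly below 0 for Cers4 and Sptlc2 and wholly above 0 for Ugcg and Degs2, before any adjustment for the number of genes.

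Ugcg, the glucosylceramide synthase that caps ceramide for transport, was at 13.98, 13.80, 14.53, 14.18 and 14.14 with stretch and at 13.49, 14.19, 12.95 and 13.51 without. All 5 stretched arrays were above 3 of the 4 non-stretched ones, and no-stretch replicate 2 lay within the stretched range. Its log2 difference was 0.59 (95% confidence interval 0.06 to 1.12), a 1.51-fold higher level, with limma adjusted p = 0.330, and it was 0.40 without no-stretch replicate 3, the array of low weight that held the lowest value.

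Abca12 carries glucosylceramide into lamellar granules, and its loss causes harlequin ichthyosis. It was at 16.30, 16.02, 17.38, 15.37 and 16.87 with stretch and at 17.55, 17.37, 17.20 and 16.42 without. Stretched arrays 1, 2 and 4 lay below every non-stretched one, while replicates 3 and 5 lay among them. The log2 difference was -0.75 (95% confidence interval -1.57 to 0.07, limma adjusted p = 0.426), and it moved to -0.49 without stretch replicate 4 and to -0.997 without stretch replicate 3.

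Smpd1 encodes acid sphingomyelinase, which frees ceramide from sphingomyelin. It was at 9.42, 9.89, 11.16, 9.20 and 10.52 with stretch and at 10.76, 10.67, 9.91 and 9.84 without. Both ends of the range were stretched arrays, and the log2 difference was -0.25 (95% confidence interval -1.09 to 0.58, limma adjusted p = 0.817). It was -0.044 without stretch replicate 4 and -0.53 without stretch replicate 3.

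The extreme values of several genes fell on the same arrays. Stretch replicate 4 held the lowest value of all 9 arrays for 5 of the 9 genes, and stretch replicate 3 held the highest for 5. Relative to the non-stretched mean, the 9 genes averaged -0.63, -0.66, 0.42, -1.19 and -0.12 on stretch replicates 1 to 5 and 0.31, 0.30, -0.13 and -0.48 on no-stretch replicates 1 to 4. With stretch replicate 4 left out the median difference of the 9 genes was -0.25 and with stretch replicate 3 left out it was -0.79, so these arrays set its size.

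**Figure D3:**
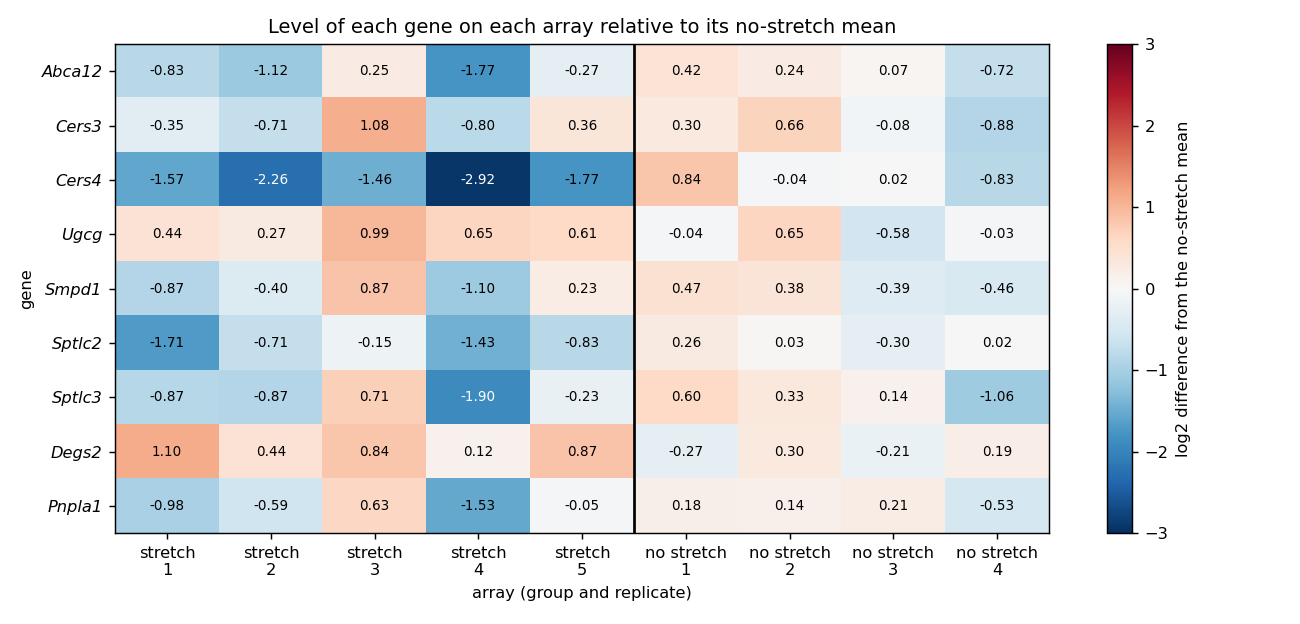
Log2 level of each gene (rows) on each array (columns, the 5 stretch arrays left of the line) minus the mean of that gene over the 4 no-stretch arrays, with the value printed in each cell (blue lower, red higher). Cers4 is below 0 on all 5 stretch arrays, Ugcg and Degs2 are above 0 on all 5, and stretch replicate 3 is above 0 for 7 of the 9 genes.

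After the group means were subtracted, so that the difference between the groups played no part, all 36 pairs of the 9 genes correlated positively over the 9 arrays (median Pearson r 0.63, range 0.04 to 0.99), and 15 of the 36 were over 0.7. Without stretch replicates 3 and 4, 7 of the 36 were negative, 6 of them with Degs2 (as low as -0.51 with Sptlc2) and the other being Cers4 with Sptlc2 (-0.096). Leaving out some single array turned 8 pairs negative, 6 of them with Degs2. Within the stretch group alone every pair was positive. Within the no-stretch group alone some pairs were negative, mostly with Degs2 (-0.50 with Pnpla1 and -0.47 with Sptlc3), but also Sptlc2 with Pnpla1 (-0.096). These values describe arrays that share their normalization and tissue piece and carry no test. The share of such r over all gene pairs is not given here, so the counts are not read as particular to these genes. Abca12 and Sptlc3 were the closest pair (r = 0.99, and between 0.98 and 0.99 with each array left out). Abca12 was also close to Pnpla1 (0.94) and Cers3 (0.94), and Cers3 to Smpd1 (0.90). Cers4 followed Abca12 and Sptlc3 (0.86 each) within the groups although its difference between them was far larger. Sptlc2 tracked Smpd1 (0.86), but its r with Abca12 went from 0.61 to 0.13 without stretch replicates 3 and 4. Ugcg and Degs2 had lower r over the 9 arrays, their highest with any of the others being 0.58 for Ugcg and 0.41 for Degs2. For Degs2 the sign differed between the groups with most of the others, on only 5 and 4 arrays. Its r with Cers4 was 0.95 within stretch and -0.69 within no stretch, and with Abca12 0.72 and -0.45. With Ugcg (0.12 and 0.75) and Sptlc2 (0.043 and 0.015) it was positive in both groups. Ugcg had an r of 0.79 with Cers3 within stretch and 0.49 within no stretch.

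The 3 named genes most like each member by this r came to 25 genes besides the members, of which 2 were in the pathway lists and 1 in the marker lists. For Abca12, after Sptlc3, they were Kyat1 (0.98) and Bcl2l13 (0.98). For Cers3 they were Cyp4f39 (0.98), the mouse counterpart of the omega-hydroxylase that prepares ultra-long chains for acylceramide, and Ephx3 (0.98), an epoxide hydrolase of the lipid envelope pathway, which are the 2 pathway genes, and Pla2g2d (0.97), a secreted phospholipase. Sptlc3 was next to Rhbdl2 (0.98) and Lipn (0.98), a lipase of differentiating keratinocytes, after Abca12. Cers4 was nearest to Neo1 (0.98), Slc1a1 (0.98), a glutamate transporter, and Mgll (0.98), the monoglyceride lipase, and Pnpla1 to Tprg (0.99), Stap2 (0.98) and Dgat2 (0.98), an enzyme of triglyceride synthesis that is also among the sebaceous markers below. Smpd1 was nearest to Mfap4 (0.98), Il22ra1 (0.98), a receptor subunit for interleukin-22, and Ckmt1 (0.98), and Sptlc2 to Mpzl2 (0.98), Gzmc (0.98) and Tcf20 (0.98). For Ugcg they were Pml (0.97), Prpf4 (0.95) and Azi2 (0.95), and for Degs2 Mrpl20 (0.95), Pkd2l2 (0.94) and Nat3 (0.93). All these neighbours were picked as the highest r among all named genes on few arrays, where unrelated genes can reach a high r by chance. How high the best r rises by chance was not tested, so no link in function is drawn from these lists, least of all for Ugcg and Degs2.

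**Figure D4:**
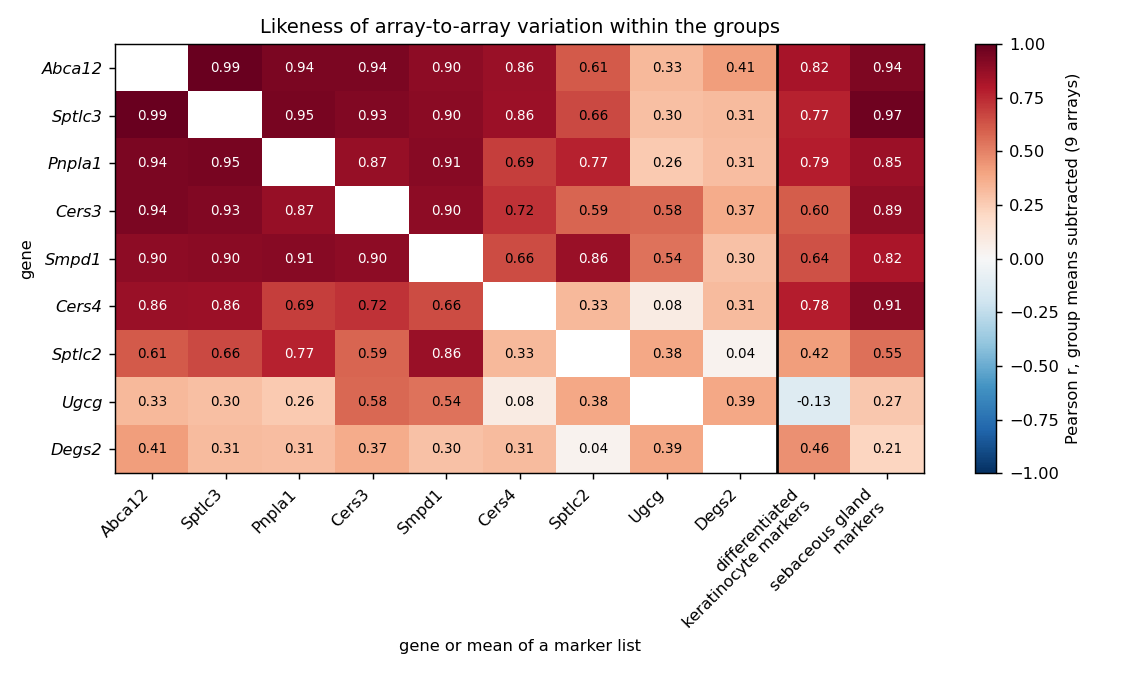
Pearson r over the 9 arrays after subtracting each group's mean, between the 9 genes (left of the line) and between each gene and the mean of 2 marker lists (right of the line), with r printed in each cell. Abca12, Sptlc3, Pnpla1, Cers3 and Smpd1 form a block at 0.87 or above, and Ugcg and Degs2 have lower r with it when both groups are pooled.

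Marker lists of the cell types in skin are given beside these levels. Of 9 measured markers of differentiated keratinocytes all 9 had a lower mean with stretch, none past the threshold, with a median log2 difference of -0.82 (7 of 9 with median centring, where Krt1 and Krt2 turned). Krt1, at the top of the scale, and the dim Krt2 differed by only -0.063 and -0.064 and add little to this count. The list mean, relative to its non-stretched mean, lay between -1.55 and -0.18 on stretched arrays and between -0.22 and 0.22 on the others. Flg2, a filaggrin-like protein, was 3.34-fold lower (limma adjusted p = 0.169). Of 8 measured sebaceous gland markers all 8 were lower, none past the threshold, with a median of -1.80 and list means between -2.54 and -0.85 with stretch and between -0.97 and 0.62 without. Mc5r among them was dim (group means 3.16 with stretch and 3.75 without). Scd3, a sebocyte desaturase, was 6.79-fold lower (limma adjusted p = 0.053). Of the 8, Scd1 and Dgat2 are known from fat cells too. Adipocyte markers were lower in 4 of 5 (5 of 5 after quantile normalization), with list means between -1.32 and -0.30 on stretched arrays and between -0.36 and 0.35 on the others. Plin1 (-1.51, limma adjusted p = 0.053) and Adipoq (-1.75, 0.076) were wholly lower with stretch, as were 2.15% of all genes. Such separation was also found in other lists, 4 of the 7 hair follicle markers below among them. Cidec had -0.67, Lep -0.45 and Fabp4 0.043 (limma adjusted p 0.321, 0.628 and 0.962).

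Within the groups, the sebaceous list mean correlated with Sptlc3 (r = 0.97), Abca12 (0.94), Cers4 (0.91), Cers3 (0.89), Pnpla1 (0.85) and Smpd1 (0.82). The keratinocyte list mean correlated with Abca12 (0.82), Pnpla1 (0.79), Cers4 (0.78), Sptlc3 (0.77), Smpd1 (0.64) and Cers3 (0.60). For Ugcg these were 0.27 with the sebaceous and -0.13 with the keratinocyte list, and for Degs2 0.21 and 0.46. For Sptlc2 they were 0.55 and 0.42, and 0.091 and 0.044 without stretch replicates 3 and 4. For some members other lists were closer than these. Degs2 had 0.74 with T cell markers, Sptlc2 0.66 with skeletal muscle and -0.71 with fibroblast markers, and Ugcg -0.55 with fibroblast markers. Macrophage markers ran the other way for every member but Degs2 (0.057), from -0.12 with Ugcg to -0.78 with Sptlc3 and -0.86 with Pnpla1. Hair follicle markers were lower in 7 of 7 (6 of 7 with median centring, where Msx2 turned). Msx2 was dim (group means 3.16 with stretch and 3.21 without). Group means with stretch were also low for Krt25 (3.32), Krt28 (3.93), Lhx2 (4.12) and Krt71 (4.33), below the array medians (5.81 to 5.99). Without stretch these 4 were at 5.12, 5.94, 6.40 and 5.87. The follicle stem cell regulator Lhx2 was the 1 of the 7 that passed the test (log2 difference -2.28, limma adjusted p = 0.029), beside 0.246% of all genes. It passed in 11 of 18 alternative analyses. The call was lost when stretch replicate 2, 4 or 5 or no-stretch replicate 1, 2 or 3 was left out, with limma adjusted p up to 0.117 (no-stretch replicate 1), and when both arrays of lowest weight were (0.075). Hair follicle list means lay between -1.51 and -1.196 with stretch and between -0.79 and 0.75 without. Neutrophil markers were higher in 6 of 6, with list means between 1.08 and 2.49 on stretched arrays and between -0.62 and 0.58 on the others, and 0 of the 6 passed the threshold. Basal keratinocyte markers were higher in 4 of 6, with a median of 0.40. Macrophage markers were higher in 5 of 5 (median 0.46), fibroblast markers lower in 4 of 4 (-0.65) and T cell markers lower in 4 of 4 (-0.52, and 3 of 4 with either rescaling), none past the threshold. The part of these cell types in the levels of the 9 genes was not tested.

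Beyond the 9, 82 of 94 entries in 5 lists of ceramide and barrier lipid genes were measured, and 0 of the 82 passed limma's adjusted threshold in either direction, beside 0.246% of all genes. Of the 82, 55 had a lower and 27 a higher mean with stretch, and the median log2 difference of the 82 was -0.27. An unadjusted p under 0.05 was found for 20 of the 82, beside 13.0% of all genes. Groups did not overlap for 3 of them, Fa2h and Abca3 lower and Ormdl1 higher, where 2.15% of all genes were wholly lower and 2.38% wholly higher.

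Among other genes of ceramide synthesis 6 of 11 were lower and the median was -0.13 (-0.057 with median centring), and Fa2h stood far from the rest. It encodes the fatty acid 2-hydroxylase that makes the hydroxylated acyl chains of skin and sebaceous ceramides, and was at 7.78, 7.15, 8.55, 6.06 and 7.31 with stretch and at 11.36, 10.51, 10.54 and 8.84 without. It was 7.71-fold lower (log2 difference -2.95, 95% confidence interval -4.10 to -1.80, limma adjusted p = 0.0501). Like Cers4 it was past the threshold in 7 of 18 alternative analyses, and its limma adjusted p was 0.021 with stretch replicate 3 left out and 0.162 with no-stretch replicate 1 left out. Of the subunits and regulators nearer the first step, Ormdl2, an inhibitor of serine palmitoyltransferase, had -0.43 and its relative Ormdl1 0.497. The small subunit Sptssb had 0.66 and was dim (group means 3.57 with stretch and 2.91 without). The limma adjusted p of these genes lay between 0.446 and 0.532. Leaving out stretch replicate 1 took Ormdl1 to 0.25 and Sptssb to 0.33, and leaving out stretch replicate 2 took Ormdl2 to -0.28. Sptlc1 and Ormdl3, in the same list, were at -0.29 and 0.098 (limma adjusted p 0.701 and 0.894). The other measured ceramide synthases were at 0.17 (Cers2), -0.13 (Cers5) and 0.41 (Cers6).

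In the list of ceramide turnover and headgroup genes 13 of 25 were lower, and the median was -0.037 (12 of 25 and 0.031 with median centring). Sphk1, a kinase that makes sphingosine 1-phosphate, had a log2 difference of -0.496, Sgpp1, the phosphatase that reverses this, -0.98, and the ceramidase Asah2 -0.92. Samd8, a relative of the sphingomyelin synthases, had 0.59. Their limma adjusted p lay between 0.225 and 0.321.

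Of the genes for acylceramide and the lipid envelope 15 of 20 had a lower mean, with a median of -0.45. Elovl6, an elongase of long-chain fatty acids, was 7.26-fold lower (log2 difference -2.86, limma adjusted p = 0.055), with an overlap at stretch replicate 3 (11.06) and no-stretch replicate 4 (10.93). Aloxe3, a lipoxygenase that prepares acylceramide for attachment to the envelope, was 2.68-fold lower (limma adjusted p = 0.213), and Tecr, which completes each elongation cycle, 2.13-fold lower (0.197). Acsl4, an acyl-CoA synthetase, was 1.55-fold higher (0.354).

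In the list of lamellar granule and other barrier lipid genes 12 of 15 were lower, with a median of -0.16 (10 of 15 with median centring). Abca3, a relative of Abca12 that loads lipid into the lamellar bodies of lung, was at 8.10, 8.25, 8.20, 8.49 and 8.21 with stretch and at 8.85, 9.12, 8.98 and 9.11 without. Its difference was modest (-0.77, limma adjusted p = 0.055) but its arrays varied little (SD 0.14, n = 5, and 0.12, n = 4), and it did not share the low values of stretch replicate 4. Klk5, a protease of desquamation, had -0.92, Pla2g2f, an epidermal phospholipase, -0.79, and Clip1 -0.31 (limma adjusted p between 0.396 and 0.548). Without stretch replicate 4 Pla2g2f was at -0.46, and without stretch replicate 1 Clip1 was at -0.16.

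Of 11 measured regulators of barrier formation 9 were lower, with a median of -0.39. Casz1, a zinc finger factor, had -0.96, the lipid receptor Pparg -0.75, the grainyhead-like factor Grhl1 -0.67 and the retinoid receptor Rxra -0.51, with limma adjusted p between 0.218 and 0.355. Their log2 differences kept their sign in each of the 18 alternatives, some of which, such as the variance model, alter only p.

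**Figure D5:**
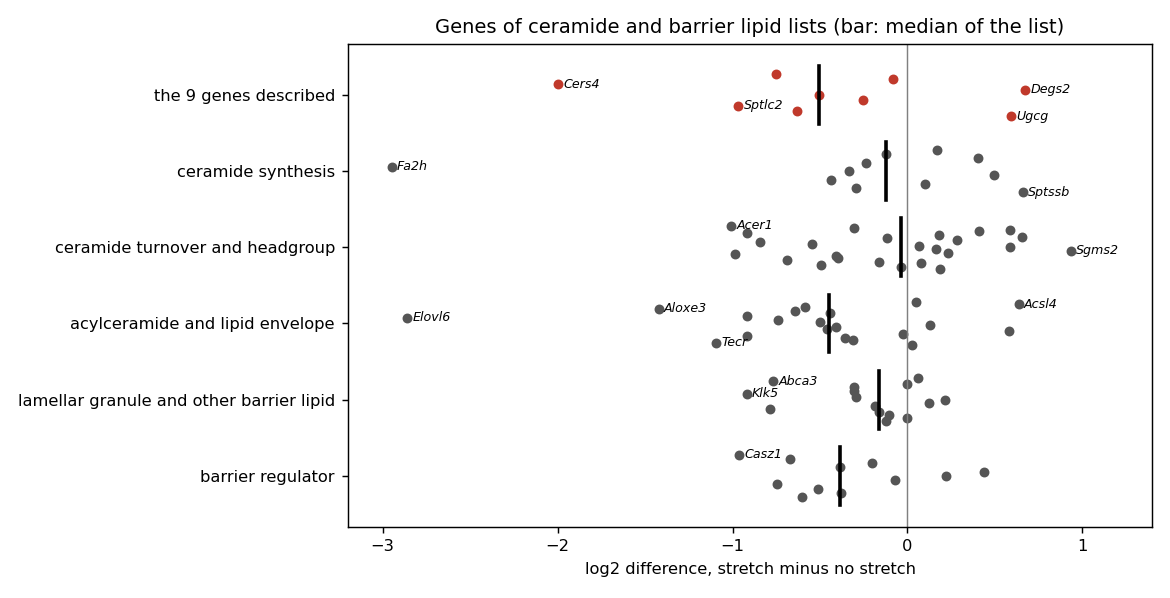
Log2 difference, stretch minus no stretch (horizontal axis), of the 9 genes (red) and of the measured genes of 5 lists (grey), with a bar at the median of each row and names at some of the outer points. Cers4, Fa2h and Elovl6 lie at or beyond about -2, the other genes lie between -1.42 and 0.93, and 0 of the genes drawn passed the adjusted threshold.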

How the data were processed

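Expression was measured on Affymetrix arrays in 9 samples of mouse skin, 5 with and 4 without stretch according to their titles, from 6 ug of total RNA each per the labels' protocols. The deposited values are on a log2 scale, and RMA and Transcriptome Analysis Console are named for them per the submitters' processing notes, without versions. RMA compresses low values, so differences of dim genes are understated. No genome build is given in the sources used here. Gene names came from the platform annotation, and where several features named a gene the one with the highest mean was used.

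Differences are stretch minus no stretch. They were tested two-sided with limma (version 3.58.1, under R version 4.3.3; lmFit, then eBayes) without covariates, and p-values were adjusted by Benjamini-Hochberg over all 19505 genes. The fit was checked on simulated data. The members, lists and tests were chosen with earlier results of these data known. Named genes are the 9, the up to 4 genes of smallest p in each list and up to 3 genes most like each member by r. Marker genes, other Cers genes, Sptlc1, Ormdl3 and the comparison of enzyme pairs were picked after values were seen. Alternatives covered renormalization, dim genes, features, variance model, array weights, the replicate number and left-out arrays. Arrays with the same replicate number had deviations that correlated at most at 0.064 in 3 of 4 pairs and at 0.34 in the other, so the numbers were not taken as pairs. Promoter sequences came from RefSeq, GRCm38.p6.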

Additional observations from a re-analysis of the deposited data

Results flagged for a closer look

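The level of Pnpla1 in no-stretch replicate 4 (9.06) stood far from the other non-stretched arrays, the nearest of which was at 9.73, a gap that made up 0.90 of the range of that group. The limit used to pick out such gaps is passed by chance in about 1 in 20 groups. The same array was the lowest of the 4 non-stretched ones for Abca12, Cers3, Cers4, Smpd1 and Sptlc3.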

How the results depend on the processing

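All 9 genes but Cers3 kept the sign of their difference in all 18 alternatives. Some of these could not change it: the filter on dim genes and the variance model alter only p. The alternatives on features also leave it as it was, as each of the 9 has 1 feature. Cers3 (-0.08) ranged from -0.38 to 0.14 with single arrays left out, being positive without stretch replicates 2 (0.074) or 4 (0.097) and without non-stretched arrays 1 (0.018) or 2 (0.14). The shift of Sptlc2 relative to Sptlc3 ranged from -0.54 to 0.025, positive without no-stretch replicate 4. The count of the 9 genes past the threshold, 0 in all, was 1 (Cers4, lower) with quantile normalization, with genes above the 25th percentile, with trend and robust variance, with array weights and with the replicate block, and between 0 and 1 with single arrays left out. Of the 82 pathway genes, 0 in all, 2 were past it with quantile normalization, 2 above the 25th percentile, 1 with trend and robust variance, 3 with array weights, 4 with the replicate block, and between 0 and 2 with single arrays left out, all lower. The count over all genes, 48, was 105 above the 25th percentile, 157 with array weights, 221 with the replicate block, 15 without both arrays of lowest weight, and between 2 and 195 with single arrays left out. The block uses replicates 1 to 4 and leaves out stretch replicate 5. Same-numbered arrays had correlations of deviations between -0.062 and 0.34 and 1 of 4 matched its own number best, so the numbers were not taken as pairs. The cause of these shifts was not tested. Over all genes, the standard error at 9 arrays had a median of 0.21 (log2).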
